A study of Drosophila melanogaster with 28 samples.

Results

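The genes described here encode the subunits of the proteasome in Drosophila melanogaster. They were taken by name from the deposited gene tables, as every gene whose name begins with Pros, Rpn or Rpt and stands on a single line, except Prosap, an unrelated gene. The pattern matched 42 names. Prosap was left out, and so was Prosalpha1, which stands on 2 lines, both listed at 0 in all 8 libraries, so 40 genes remained of 13892 uniquely named genes in the tables. Of these, 27 are general subunits and 13 are testis-type paralogs, whose names end in T or R, with or without a number, or, for Pros28.1A and Pros28.1B, carry the current RefSeq names Prosalpha4T1 and Prosalpha4T2.

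RNA sequencing covered 4 groups of 2 libraries each, within a study of transposon silencing in the fly ovary. They were embryos aged 0 to 2 h, whole ovaries, OSS cells (an ovarian somatic sheet line kept in culture, with no germline) and the carcass of flies whose ovaries had been removed. Flies were raised at 25 °C and fed yeast paste, and OSS cells were grown in supplemented M3 medium. The strain, genotype, sex and age of the flies, and whether replicates came from separate animals or cultures, are not stated in the labels, so p-values measure the spread between these libraries, which may be technical. OSS is a single line, and ovary, carcass and embryo are mixtures of cell types, in which fewer cells of a type and less RNA per cell cannot be told apart. The 20 knockdown libraries of the series hold transposon families and no gene values, and were not used here.

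The proteasome degrades proteins that carry ubiquitin chains. Its core particle is a barrel of stacked rings: the outer rings of alpha subunits gate the entrance, and the inner rings of beta subunits hold the proteolytic sites. The regulatory particle caps the barrel, with a base that contains a ring of ATPases, which unfold substrates, and a lid that removes ubiquitin. In Drosophila several subunits have a second gene copy that is expressed in the testis and acts during sperm formation.

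Levels are FPKM, fragments scaled by transcript length and by the mapped total of the library, which allows genes to be compared per length within a library. FPKM summed to between 459356.6 and 629055.1 per library, the read depth is unknown, and between 1751 and 5479 of 14147 lines were listed at 0, with the most in embryo replicate 1. Differences are on the log2(FPKM + 1) scale, which understates changes of genes at low FPKM, and come from limma in 1 fit over all 8 libraries and the 11488 genes that reached 1 FPKM in at least 2 libraries. A gene is called when its Benjamini-Hochberg adjusted p over all genes tested is under 0.05. Of the 40 members, 31 passed the filter on low values, namely all 27 general subunits and 4 testis-type paralogs. Germline markers (6 genes: vas, osk, nos, aub, orb and bam) summed to 232 and 232 FPKM in embryo, 1065 and 1108 in ovary, 20.5 and 17.4 in OSS, and 54.0 and 65.5 in carcass, and all 6 were above 0 in each library. Ovarian somatic markers (5 genes: tj, Fas3, fs(1)Yb, hh and ptc) summed to 2.83 and 2.82 FPKM in embryo, 63.6 and 67.1 in ovary, 217.5 and 214.0 in OSS, and 71.0 and 68.6 in carcass. Of these, tj was at 0.900 and 0.26 FPKM in embryo, 26.6 and 23.7 in ovary, 84.2 and 87.9 in OSS, and 3.12 and 3.93 in carcass, but Fas3 was highest in carcass, at 64.1 and 58.8 FPKM in carcass. Both hh and ptc were highest in OSS but lower in ovary than in carcass. In ovary hh was at 0.349 and 0.758 FPKM and ptc at 0.780 and 0.767. In carcass hh was at 1.67 and 2.49 FPKM and ptc at 2.12 and 3.29. Muscle markers (5 genes) summed to at most 142.5 FPKM outside carcass, against 5491 and 4226 FPKM in carcass.

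The 12 general core subunits were abundant in ovary, OSS and carcass and were at 20 FPKM or more in embryo, with the exception of Pros25 in embryo replicate 2. Among the alpha subunits, which gate the core, Pros29 (current name Prosalpha3) was at 30.2 and 36.9 FPKM in embryo, 203 and 199.6 in ovary, 286 and 288 in OSS, and 93.8 and 91.7 in carcass. Pros25 (Prosalpha2) was the lowest core subunit in both embryo libraries, at 21.2 and 8.67 FPKM in embryo, 148 and 152 in ovary, 225 and 243 in OSS, and 67 and 77.6 in carcass. Pros28.1 (Prosalpha4) was at 55 and 49.4 FPKM in embryo, 177 and 146 in ovary, 133 and 125 in OSS, and 74.7 and 71.7 in carcass, and differs from the other alpha subunits in that both ovary libraries lay above both OSS libraries. Prosalpha5 was at 48.2 and 47.3 FPKM in embryo, 192 and 176 in ovary, 269 and 250.4 in OSS, and 102 and 87.1 in carcass. Pros35 (Prosalpha6) was at 64 and 66.8 FPKM in embryo, 175 and 163 in ovary, 239 and 244 in OSS, and 60.9 and 71.5 in carcass, so that both embryo libraries lay between the carcass libraries. Prosalpha7 was at 52 and 35.1 FPKM in embryo, 229 and 208 in ovary, 274 and 268 in OSS, and 100.3 and 97 in carcass. For all 6 alpha subunits the ovary and OSS libraries lay above the carcass libraries as deposited, with no overlap. Of all genes tested, 50.2% lay above carcass in this way in ovary and 53.4% in OSS.

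Of the beta subunits, Prosbeta1, Prosbeta2 and Prosbeta5 carry the proteolytic sites, known from yeast and mammals as cleaving after acidic, basic and hydrophobic residues. Prosbeta1 was at 43.3 and 30.3 FPKM in embryo, 240.4 and 223 in ovary, 320.0 and 305 in OSS, and 131 and 133 in carcass, and its 320.0 FPKM in OSS replicate 1 was the highest value of any member. Prosbeta2 was at 94.8 and 105 FPKM in embryo, 182 and 168 in ovary, 210.1 and 210.4 in OSS, and 83.7 and 86.4 in carcass, so that both embryo libraries lay above both carcass libraries. Prosbeta5 was at 41.1 and 31.5 FPKM in embryo, 201 and 194 in ovary, 294 and 292 in OSS, and 107 and 103 in carcass. The catalytic genes therefore stood at different embryo levels, with Prosbeta2 above the other two. The remaining beta subunits have no catalytic site. Prosbeta3 was at 131 and 127 FPKM in embryo, 218 and 219 in ovary, 280.2 and 289.7 in OSS, and 113 and 107 in carcass. Pros26 (Prosbeta6) was at 60.9 and 33.2 FPKM in embryo, 211 and 204 in ovary, 235 and 250.4 in OSS, and 87.4 and 101 in carcass. Prosbeta7 was at 158 and 188 FPKM in embryo, 118 and 107 in ovary, 153 and 167 in OSS, and 69.4 and 65.3 in carcass, the only general subunit with its highest mean in embryo, although OSS replicate 2 lay above embryo replicate 1.

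**Figure D1:**
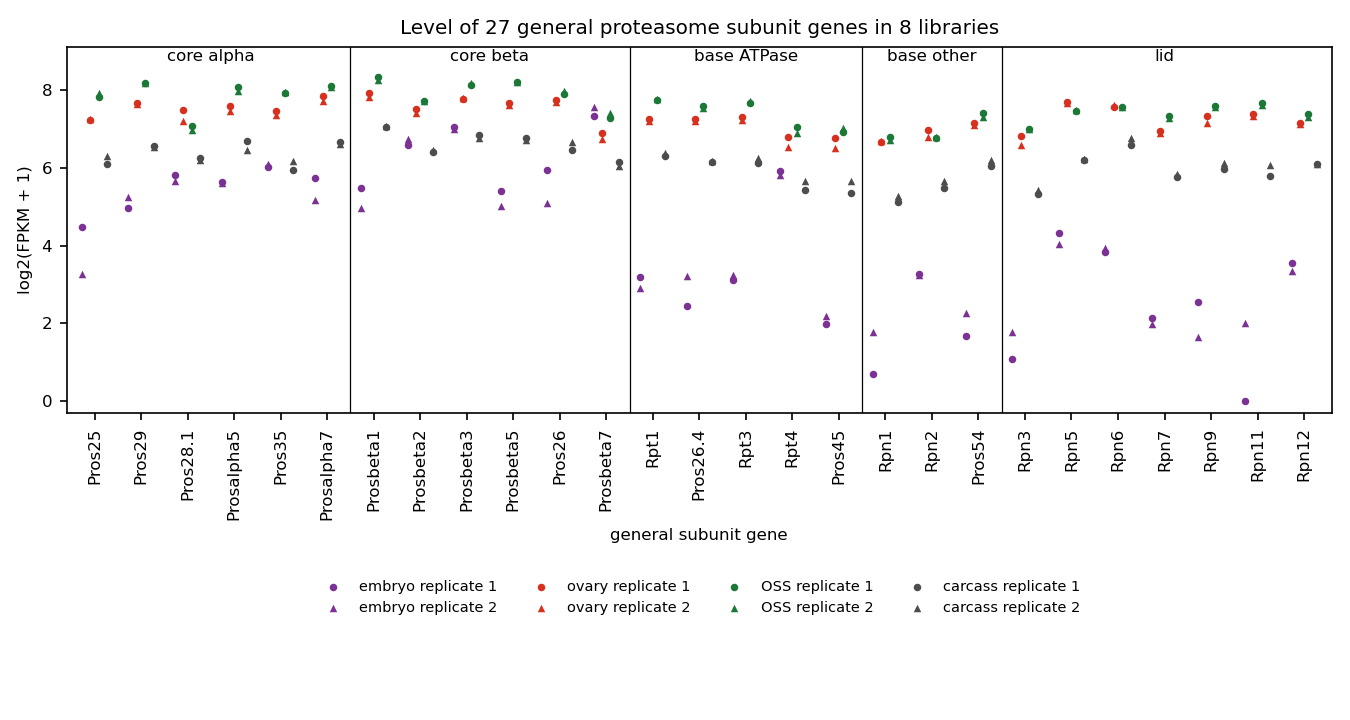
Level of each of the 27 general proteasome subunit genes in each library, as log2(FPKM + 1) on the vertical axis, grouped on the horizontal axis by core alpha, core beta, base ATPase, other base and lid subunits. Points are single libraries (circle replicate 1, triangle replicate 2) of embryo, ovary, OSS and carcass; the embryo points of 14 of 15 regulatory subunits lie under 20 FPKM, while 11 of 12 core subunits are at 30 FPKM or more in both embryo libraries.

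The 15 general subunits of the regulatory particle were abundant in ovary, OSS and carcass, where the highest was at most 2.84 times the lowest within a library, and low in embryo. The ATPase Rpt1 was at 8.18 and 6.51 FPKM in embryo, 152 and 145 in ovary, 212 and 216 in OSS, and 77.2 and 82.1 in carcass. Pros26.4 (Rpt2) was at 4.49 and 8.36 FPKM in embryo, 150.4 and 145 in ovary, 191 and 183 in OSS, and 70.3 and 71.3 in carcass, and Rpt3 at 7.63 and 8.44 FPKM in embryo, 158 and 149 in ovary, 202 and 209 in OSS, and 68.4 and 74.7 in carcass. Both ATPases were under 10 FPKM in each embryo library and above 60 FPKM in every other library. Rpt4 was at 59.4 and 55.2 FPKM in embryo, 109 and 91.2 in ovary, 129.9 and 117 in OSS, and 42 and 49.4 in carcass, the only one of the 15 above 20 FPKM in embryo. Pros45 (Rpt6) was at 2.98 and 3.54 FPKM in embryo, 107 and 90.1 in ovary, 120.0 and 129 in OSS, and 39.9 and 49.6 in carcass. The other base subunits are scaffolds and ubiquitin receptors. Rpn1, which in yeast docks proteins that deliver ubiquitinated substrates, was at 0.629 and 2.46 FPKM in embryo, 99.7 and 102 in ovary, 109 and 104 in OSS, and 34 and 37.7 in carcass. Rpn2, a scaffold of the base, was at 8.68 and 8.51 FPKM in embryo, 124 and 110.5 in ovary, 108 and 109 in OSS, and 43.6 and 49.1 in carcass. Pros54 (Rpn10), a receptor of ubiquitin chains, was at 2.19 and 3.81 FPKM in embryo, 142 and 137 in ovary, 169 and 156 in OSS, and 65.5 and 71.8 in carcass. All 3 were under 10 FPKM in embryo.

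In the lid, Rpn11 is the metalloprotease that cuts ubiquitin chains off substrates. It was at 0 and 3.0 FPKM in embryo, 167 and 159 in ovary, 203 and 196 in OSS, and 54.1 and 65.9 in carcass, and is listed at 0 in 1 embryo library. The other lid subunits form its scaffold. Rpn3 was at 1.12 and 2.44 FPKM in embryo, 112 and 95.6 in ovary, 127 and 127 in OSS, and 38.9 and 41.6 in carcass, and Rpn7 at 3.43 and 2.93 FPKM in embryo, 121 and 117 in ovary, 158 and 154 in OSS, and 53.6 and 56 in carcass. Rpn5 was at 18.9 and 15.5 FPKM in embryo, 206 and 200.2 in ovary, 174 and 178 in OSS, and 72 and 73.6 in carcass, and Rpn6 at 13.3 and 14.3 FPKM in embryo, 189 and 196 in ovary, 187 and 187 in OSS, and 95 and 107 in carcass. Rpn5 and Rpn6 were the highest of these lid subunits in embryo, yet no embryo library of either reached 20 FPKM. Rpn9 was at 4.85 and 2.12 FPKM in embryo, 159 and 140.1 in ovary, 191 and 188 in OSS, and 61.6 and 68.2 in carcass, and Rpn12 at 10.6 and 9.24 FPKM in embryo, 141 and 137 in ovary, 164 and 158 in OSS, and 66.9 and 67.1 in carcass. In each of the 15 regulatory subunits except Rpt4 the embryo libraries lay below the carcass, ovary and OSS libraries, with no overlap. Of all genes tested, 55.1% had both embryo libraries below both ovary libraries. The share below all the other groups was not computed.

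Over the 27 general subunits, the group means as deposited ran from OSS through ovary to carcass, high to low, for 23 genes. Embryo had the lowest mean for 23 genes, among them Pros35, with means of 65.4 FPKM in embryo and 66.2 in carcass. The shares of all genes with these orders were not computed. Of all genes tested, 53.4% had both OSS libraries above both carcass libraries, and 55.1% had both embryo libraries below both ovary libraries. Embryo was not tested against carcass, and the orders were not examined under other scalings. The 4 genes with a higher mean in embryo than in carcass were Prosbeta2, Prosbeta3, Prosbeta7 and Rpt4. General subunits made up 0.206% and 0.193% of all FPKM in embryo, 0.763% and 0.724% in ovary, 0.853% and 0.860% in OSS, and 0.363% and 0.336% in carcass. Their levels were uneven in embryo, with an SD over the 27 genes of 2.03 and 1.77 on the log2 scale, against 0.36 and 0.40 in ovary, 0.45 and 0.46 in OSS, and 0.50 and 0.43 in carcass. The rank order of the genes was also less alike between embryo and the other groups, with Spearman's rho of 0.471 for embryo and ovary, 0.407 for embryo and OSS, and 0.554 for embryo and carcass. It was 0.846 for ovary and OSS, 0.877 for ovary and carcass, and 0.817 for OSS and carcass, and between 0.937 and 0.985 for the replicates of a group. These correlations are over genes that share libraries, and are a description.

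The comparison of ovary with carcass asks how a tissue rich in growing germ cells differs from the rest of the fly. With the values as deposited, all 27 general subunits rose in ovary and none fell (2 turned negative under median-ratio scaling), where 43.5% of all genes tested were called higher and 31.1% lower (74.6% in all). The median difference was 1.10 on the log2 scale over the 27 subunits, against 0.31 over all genes, and the ovary mean was between 1.67 and 2.81 times the carcass mean, with a median of 2.17 times. The changes were largest for Rpn1, Rpn5 and Rpn11. Rpn1 rose by 1.47 (SE 0.32, adjusted p = 0.00425) in limma's test, and Rpn5 by 1.47 (SE 0.11, adjusted p = 2.23e-05). Rpn11 rose by 1.43 (SE 0.56, adjusted p = 0.0499), a call lost under 12 of 16 alternative settings. Pros25 rose by 1.05 (adjusted p = 0.0258), a call lost when any one ovary, OSS or carcass library was left out. The SE of a gene is pooled over all 4 groups, so it also holds the spread between the embryo libraries. These were at 0 and 3.0 FPKM for Rpn11 and at 21.2 and 8.67 FPKM for Pros25. Both calls held in a fit of ovary and carcass alone. The smallest changes were in core beta subunits and an ATPase. Prosbeta7 rose by 0.73 (SE 0.11, adjusted p = 0.000786), Prosbeta1 by 0.81 (SE 0.16, adjusted p = 0.00245) and Rpt1 by 0.89 (SE 0.12, adjusted p = 0.00035). For each of the 27 both ovary libraries lay above both carcass libraries, as for 50.2% of all genes tested. Scaling moves this result: with median-ratio scaling the subunits' median was 0.28 and that of all genes -0.30, so that 3 of the 27 were still called (3160 of all genes higher and 4618 lower), Prosbeta1 and Prosbeta7 turned negative, and the subunits' median relative to that of all genes was 0.58, against 0.80 as deposited.

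OSS cells, a somatic culture, were also set against carcass. As deposited, all 27 general subunits rose in OSS and none fell (2 turned negative under median-ratio scaling), against 46.1% of all genes called higher and 29.9% lower (76.0% in all). The median difference was 1.42, against 0.51 over all genes, and the ratio of means was between 1.76 and 3.65 with a median of 2.70. Pros35 rose by 1.86 (SE 0.10, adjusted p = 6.77e-06), Rpn11 by 1.72 (SE 0.56, adjusted p = 0.025) and Pros25 by 1.68 (SE 0.34, adjusted p = 0.00313), the largest differences. The call of Rpn11 was again lost under 10 of 16 settings, among them each omission of an ovary, OSS or carcass library. It held in a fit of OSS and carcass alone, where the SE holds no spread of embryo. The differences of Pros28.1, at 0.80 (SE 0.12, adjusted p = 0.000567), Rpn6, at 0.88 (SE 0.09, adjusted p = 0.000125), and Rpn2, at 1.21 (SE 0.11, adjusted p = 6.01e-05), were the smallest. Median-ratio scaling left 13 of the 27 calls (3248 of all genes higher and 4676 lower), with Pros28.1 and Rpn6 turned negative, a subunit median of 0.52 and a median of all genes of -0.26. The ovary and OSS comparisons share the carcass libraries and are not independent.

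**Figure D2:**
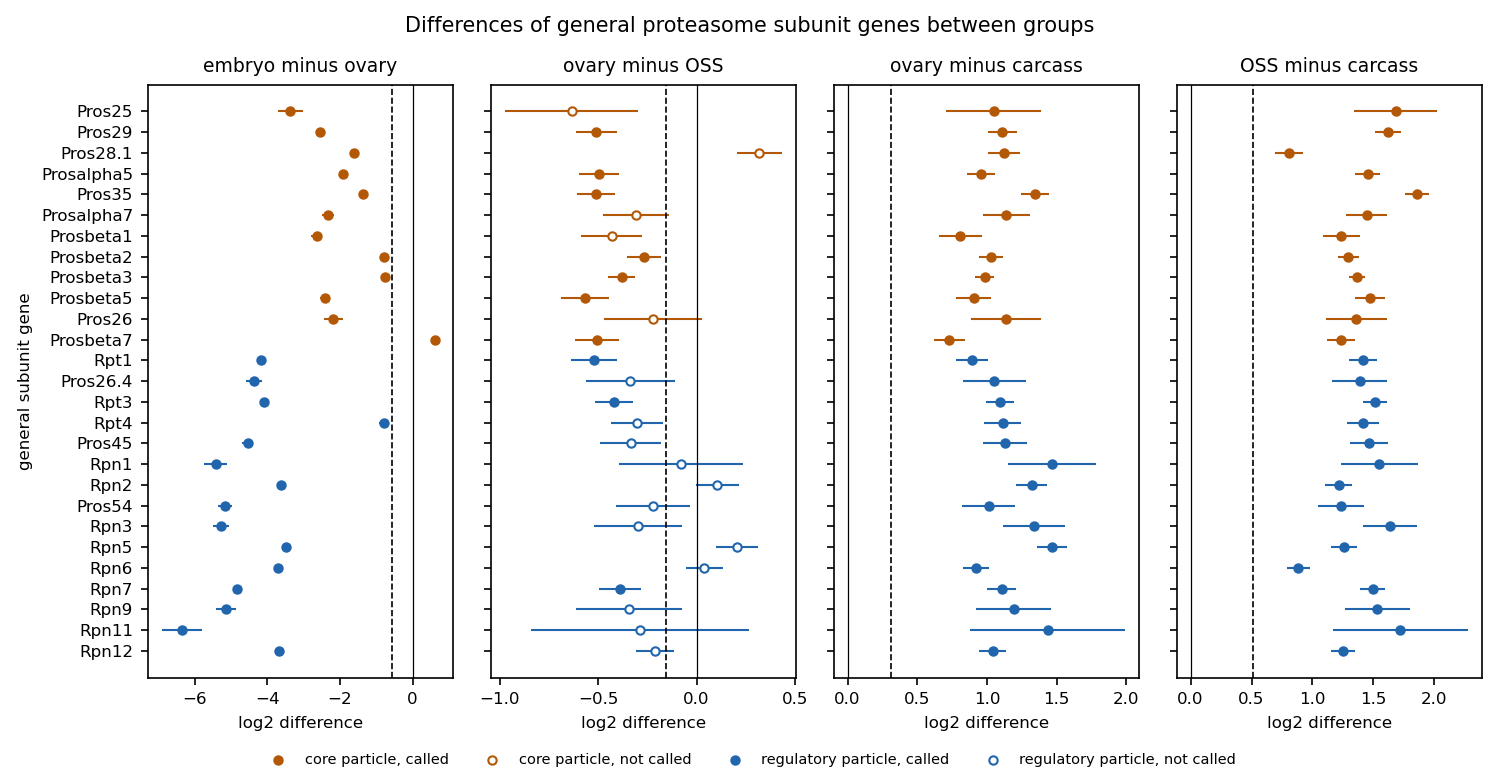
The log2(FPKM + 1) difference of each general subunit for embryo minus ovary, ovary minus OSS, ovary minus carcass and OSS minus carcass, with points at limma's estimate, bars for 1 standard error, filled points for called and open points for not called genes, and a dashed line at the median of all genes tested. With values as deposited, all 27 points lie above 0 in both comparisons with carcass (2 turn negative in each under median-ratio scaling), they straddle 0 for ovary minus OSS, and 26 of 27 lie below 0 for embryo minus ovary (3 turn positive under that scaling).

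Between ovary and OSS the general subunits differed little. None rose in ovary and 10 fell, against 18.8% of all genes called higher and 23.0% lower (41.7% in all), and the median difference was -0.33, against -0.16 over all genes. The 10 called were 7 core subunits (Prosbeta5, Pros35, Pros29, Prosbeta7, Prosalpha5, Prosbeta3 and Prosbeta2) and 3 regulatory subunits (Rpt1, Rpt3 and Rpn7). The lowest were Prosbeta5 at -0.57 (SE 0.12, adjusted p = 0.0097), Rpt1 at -0.52 (SE 0.12, adjusted p = 0.0108) and Pros35 at -0.51 (SE 0.10, adjusted p = 0.00562), and the smallest called differences were Rpn7 at -0.39 (SE 0.11, adjusted p = 0.0239), Prosbeta3 at -0.38 (SE 0.07, adjusted p = 0.00405) and Prosbeta2 at -0.27 (SE 0.08, adjusted p = 0.0411). No subunit differed by 2-fold. Of the 17 not called, Pros25 had the lowest value, at -0.64 (SE 0.34, adjusted p = 0.183), and Pros28.1 the highest, at 0.32 (SE 0.12, adjusted p = 0.064). The value of Pros25 was lower than that of any called subunit, with 148 and 152 FPKM in ovary and 225 and 243 in OSS. Its SE also holds the spread of its embryo libraries, at 21.2 and 8.67 FPKM. Core subunits not called were also Prosbeta1 (-0.43, adjusted p = 0.0638), Prosalpha7 (-0.31) and Pros26 (-0.22). Among the regulatory subunits, the estimates not called were -0.34 for Pros26.4, -0.33 for Pros45, -0.30 for Rpt4, -0.08 for Rpn1, 0.10 for Rpn2 and -0.22 for Pros54. In the lid they were -0.30 for Rpn3, 0.21 for Rpn5, 0.04 for Rpn6, -0.34 for Rpn9, -0.29 for Rpn11 and -0.21 for Rpn12. Both ovary libraries lay below both OSS libraries for 23 of the 27, as for 47% of all genes, and above them for 4 (Pros28.1, Rpn2, Rpn5 and Rpn6), as for 34%. The count called lower was 5 without ovary replicate 1, 1 without ovary replicate 2, 3 without OSS replicate 1 and 3 without OSS replicate 2. A fit of ovary and OSS alone, whose SE holds no spread of embryo or carcass, called 20 lower and 1 higher. Quantile normalization called 9 lower and 4 higher. Over all genes, the count called lower was 1718 without ovary replicate 1, 1547 without ovary replicate 2, 1530 without OSS replicate 1 and 1593 without OSS replicate 2, against 2640 with all libraries. The fit of ovary and OSS alone called 4182 of all genes lower and 2983 higher, and quantile normalization 2476 lower and 2382 higher.

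The early embryo holds RNA that the mother placed in the egg, before most of its own genes are transcribed, so embryo was set against ovary. Prosbeta7 rose and the other 26 general subunits fell (3 of them turned positive under median-ratio scaling), against 15.1% of all genes called higher and 44.8% lower (59.9% in all). The median difference was -3.49 over the 27, against -0.58 over all genes. The medians by particle were -2.05 (range -3.37 to 0.62) over 12 core subunits and -4.38 (range -6.36 to -0.79) over 15 regulatory subunits. They were -0.81 for the core and -3.21 for the regulatory subunits under median-ratio scaling, and -1.86 and -2.77 in the same order under quantile normalization. As a share of the ovary mean, the embryo mean was between 9.94% (Pros25) and 59.1% (Prosbeta3) for 11 core subunits and 154% for Prosbeta7. It was 57.3% for Rpt4 and between 1.53% (Rpn1) and 8.49% (Rpn5) for 13 regulatory subunits, leaving aside Rpn11, which is listed at 0 in 1 embryo library.

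The largest falls in embryo were in the regulatory particle. Rpn11 fell, with a difference of -6.36 (SE 0.56, adjusted p = 4.71e-05) that ranged between -8.19 and -5.30 over the alternative settings. Rpn1 differed by -5.42 (SE 0.32, adjusted p = 6.92e-06), while Rpn3 differed by -5.27 (SE 0.22, adjusted p = 2.04e-06). The ubiquitin receptor Pros54 differed by -5.16, and the ATPase Pros45 by -4.55. The smallest falls were those of Prosbeta3, at -0.75 (SE 0.07, adjusted p = 5.51e-05), Rpt4, at -0.79 (SE 0.13, adjusted p = 0.00137), and Prosbeta2, at -0.80 (SE 0.08, adjusted p = 0.000127). Prosbeta7 rose by 0.62 (SE 0.11, adjusted p = 0.00217), with a mean of 173 ± 21.2 FPKM in embryo and 112 ± 8.25 FPKM in ovary (SD, n = 2 each). Under median-ratio scaling, which brings the median of all genes to 0.00, the subunits' median was -2.27, 21 fell (3694 of all genes lower and 3371 higher), and Prosbeta7 was joined by Prosbeta2, Prosbeta3 and Rpt4, which turned positive.

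**Figure D3:**
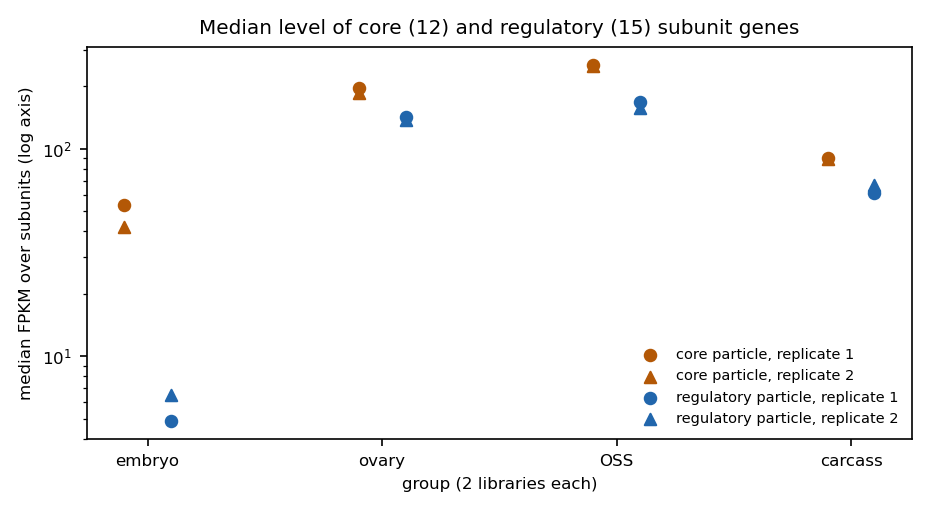
Median FPKM of the 12 core and the 15 regulatory general subunits in each library of embryo, ovary, OSS and carcass, on a logarithmic vertical axis. The core median is 11 and 6.47 times the regulatory median in the embryo libraries, and between 1.33 and 1.58 times it in the other 6 libraries.

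A ratio of the particles within a library needs no scaling between libraries. The median level of the core subunits was 53.5 and 42.1 FPKM in embryo, 197 and 185 in ovary, 254 and 250.4 in OSS, and 90.6 and 89.4 in carcass. That of the regulatory subunits was 4.85 and 6.51 FPKM in embryo, 142 and 137 in ovary, 169 and 158 in OSS, and 61.6 and 67.1 in carcass. The ratio of the core to the regulatory median was thus 11 and 6.47 in embryo, 1.38 and 1.35 in ovary, 1.51 and 1.58 in OSS, and 1.47 and 1.33 in carcass. Members are not replicates, so no test was made of the ratio. The 11 of the 27 general subunits under 10 FPKM in both embryo libraries were all regulatory subunits.

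Transcript length differs between the classes, with a median of 974.5 nt for the core and 1553 nt for the regulatory genes, from the longest annotated transcript in a newer build than the files use. Spearman's rho of length with the embryo minus ovary difference was -0.559 over the 27 subunits, but 0.434 within the core, 0.143 within the regulatory particle and 0.157 over all genes with a length. Genes as long as the core subunits (852 to 1215 nt, 1504 genes) had a median embryo minus ovary difference of -0.76, and genes as long as the regulatory subunits (995 to 3412 nt, 6520 genes) one of -0.69.

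Some members overlap another gene, most of them on the opposite strand, and the strand setting of the counting is not stated in the labels or processing notes, so reads of overlapping genes cannot be told apart. For Rpt4, the overlapping gene wuho was at 0.733 and 0.636 FPKM in embryo and 29 and 22.8 in ovary, far below Rpt4 in embryo. CG11980, which overlaps Prosbeta3, was at 21.2 and 25.6 FPKM in embryo and 146 and 128 in ovary, and Reck, which overlaps Prosbeta2, at 0.221 and 0.962 FPKM in embryo and 3.6 and 2.61 in ovary. The gene ave, which overlaps Rpn6, was at 481 and 415 FPKM in embryo and 108 and 125 in ovary, well above Rpn6 in embryo. CG17985, which overlaps Rpt1 on the same strand, was at 34.1 and 33.2 FPKM in embryo and 24.8 and 25.4 in ovary, and CG10365, which overlaps Rpn9, at 19.2 and 24.3 FPKM in embryo and 58 and 66.6 in ovary, both above the subunit in embryo. Of the core subunits, Prosbeta1 overlaps CG8389, at 46.9 and 49.5 FPKM in embryo and 43.4 and 44.7 in ovary, above Prosbeta1 in both embryo libraries. Prosbeta5 overlaps Lsm10, at 38.5 and 42.6 FPKM in embryo and 74.6 and 90.5 in ovary, above Prosbeta5 in embryo replicate 2. The part of these genes in the embryo values was not tested. No overlapping gene was annotated for Prosbeta7.

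The name pattern misses 5 general subunits that the files list under other symbols, and these were examined after seeing the data. Mov34 (Rpn8), a lid subunit, was at 20.1 and 27.7 FPKM in embryo, 169 and 144 in ovary, 181 and 162 in OSS, and 66.3 and 73.5 in carcass. Tbp-1 (Rpt5), an ATPase, was at 13.2 and 10.9 FPKM in embryo, 154 and 137 in ovary, 141 and 137 in OSS, and 54.4 and 68.6 in carcass. CG17331 (Prosbeta4), a core subunit, was at 61.2 and 57.2 FPKM in embryo, 241 and 239 in ovary, 303 and 332 in OSS, and 102 and 104 in carcass. All of these were lowest in embryo, and of them the core subunit was the highest there. CG13349 (Rpn13), a ubiquitin receptor, was at 4.3 and 2.93 FPKM in embryo, 107 and 104 in ovary, 92.2 and 77.5 in OSS, and 49.2 and 54.8 in carcass. CG13779 (Sem1), a small lid subunit, was at 11.8 and 10.2 FPKM in embryo, 727 and 601 in ovary, 551 and 559.9 in OSS, and 209 and 206 in carcass. As deposited, all 5 rose in ovary and in OSS against carcass (43.5% and 46.1% of all genes tested were called higher). CG17331 fell in ovary against OSS (23.0% of all genes called lower), and the other 4 were not called. All 5 fell in embryo against ovary (44.8% of all genes called lower), with differences between -5.79 (CG13779) and -2.0 (CG17331). Under median-ratio scaling Mov34 was not called against carcass in ovary (0.32, adjusted p = 0.0862) or OSS (0.38, adjusted p = 0.0511). CG13779 stayed higher in both.

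Genes that act beside the proteasome were read from lists of assembly factors and regulators, the ubiquitin system, the COP9 signalosome and the chaperonin. Of 16 names listed for assembly factors and regulators, 11 were tested, 2 of which (Mov34 and CG13779) are the subunits just described. The lists can hold 2 names of 1 gene, such as Sem1 and CG13779, so a name not tested need not be a further gene. In ovary against carcass 10 rose and none fell (median 1.15), in OSS against carcass 8 rose and 1 fell (1.28), in ovary against OSS 3 rose and 4 fell (-0.13), and in embryo against ovary 1 rose and 9 fell (-2.19). Of all genes tested, the shares called were 43.5% higher and 31.1% lower in ovary against carcass, and 46.1% higher and 29.9% lower in OSS against carcass. They were 18.8% higher and 23.0% lower in ovary against OSS, and 15.1% higher and 44.8% lower in embryo against ovary. These shares are also the background of the ubiquitin, signalosome and chaperonin lists. Uch-L3, a ubiquitin hydrolase, led the list in both comparisons with carcass, at 2.35 in ovary and 2.95 in OSS, and was the 1 gene that rose in embryo. It was at 202 and 221 FPKM in embryo, 162 and 158 in ovary, 238 and 248 in OSS, and 30.2 and 30.9 in carcass. The transcription factor cnc, whose mammalian relative Nrf1 activates proteasome genes, was at 18.3 and 20.9 FPKM in embryo, 89.5 and 96.1 in ovary, 44.1 and 45.8 in OSS, and 71.4 and 79.5 in carcass. It was the 1 gene of the list that fell in OSS against carcass (-0.73), it had the smallest called rise in ovary against carcass (0.30, adjusted p = 0.048; called lower at -0.53, adjusted p = 0.00412, under median-ratio scaling), and it rose most in ovary against OSS (1.03). Under median-ratio scaling the split was 4 higher and 1 lower for ovary against carcass, 4 and 3 for OSS against carcass, 3 and 2 for ovary against OSS, and 3 and 7 for embryo against ovary. REG, an alternative cap of the core, was lowest in ovary against OSS (-1.1), at 37.1 and 25.6 FPKM in embryo, 171 and 158 in ovary, 353 and 354 in OSS, and 45.7 and 54.2 in carcass.

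**Figure D4:**
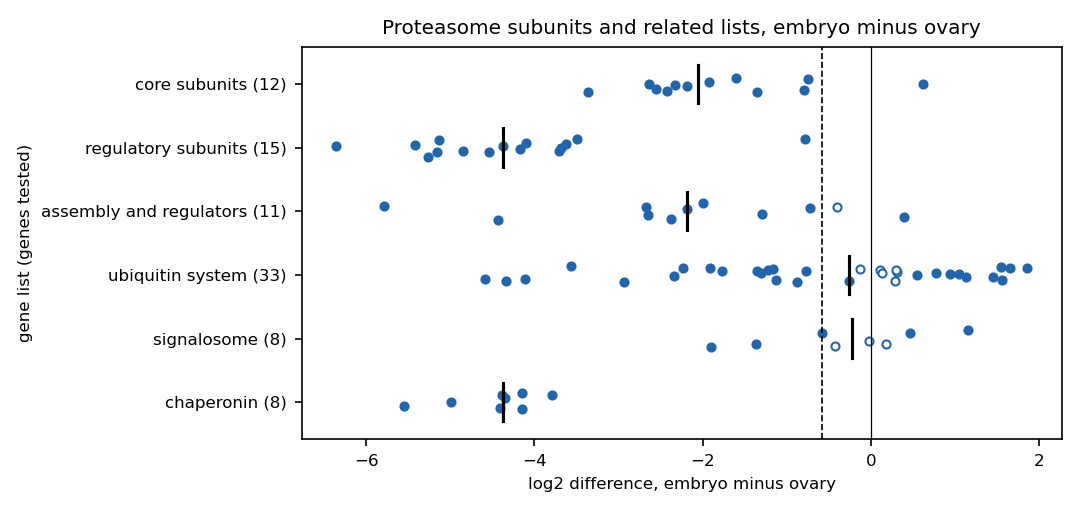
Embryo minus ovary difference, on the log2(FPKM + 1) scale, of each tested gene in the core, the regulatory particle, the assembly and regulator list, the ubiquitin list, the signalosome and the chaperonin, with filled points for called and open points for not called genes, a bar at each list's median and a dashed line at the median of all genes tested. The medians are -2.05 for the core, -4.38 for the regulatory particle, -2.19 for assembly factors and regulators, -0.26 for the ubiquitin list, -0.22 for the signalosome and -4.37 for the chaperonin.

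The ubiquitin list holds genes for ubiquitin and for its activating, conjugating and ligating enzymes, SUMO and Nedd8 genes, deubiquitinases, and the segregase TER94 with its partners p47 and Ufd1-like. Of its 35 genes, 33 were tested. In ovary against carcass 28 rose and 1 fell (median 1.12), in OSS against carcass 27 rose and 3 fell (0.87), in ovary against OSS 14 rose and 7 fell (0.21), and in embryo against ovary 10 rose and 17 fell (-0.26). The share that fell in embryo was close to the 44.8% of all genes, and that which fell in ovary against OSS to the 23.0%. Under median-ratio scaling these counts were 15 higher and 5 lower for ovary against carcass, 12 and 11 for OSS against carcass, 16 and 3 for ovary against OSS, and 19 and 9 for embryo against ovary. The same scaling called 3160 of all genes higher and 4618 lower for ovary against carcass, 3248 and 4676 for OSS against carcass, 2241 and 2180 for ovary against OSS, and 3371 and 3694 for embryo against ovary. The polyubiquitin gene Ubi-p5E fell most in embryo, with a difference of -4.59, at 1.04 and 2.72 FPKM in embryo, 64.9 and 65.7 in ovary, 101 and 93.5 in OSS, and 49 and 49.8 in carcass. The SUMO-conjugating enzyme lwr rose most in embryo (1.86), at 386 and 417 FPKM in embryo, 115 and 105 in ovary, 174 and 174 in OSS, and 32 and 32.8 in carcass. Uba2, a subunit of the SUMO-activating enzyme, rose most against carcass, by 2.45 in ovary and 3.13 in OSS. The ligase ari-1 fell in OSS against carcass (-4.27) and rose in ovary against OSS (4.04). UbcD6, a ubiquitin-conjugating enzyme, fell in ovary against carcass (-0.55), and Ufd1-like fell most in ovary against OSS (-1.18).

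The COP9 signalosome is built on the same plan as the lid of the proteasome, and removes Nedd8 from cullin ligases. All 8 genes tested, of 10 names listed, rose in ovary against carcass (median 1.64, 1.03 for CSN7 to 1.97 for CSN4) and in OSS against carcass (median 1.98, 1.47 for CSN4 to 2.54 for CSN5). In ovary against OSS 4 fell (-0.87 for CSN7 to -0.51 for CSN8, median of the 8 -0.46), and none rose. In embryo against ovary 2 rose and 3 fell, with a median of -0.22. Median-ratio scaling gave 1 higher and 5 lower in ovary against OSS, and 6 higher and 1 lower in embryo against ovary. CSN5, the metalloprotease that is the counterpart of Rpn11, fell in embryo (-1.9) and was at 21.6 and 22.7 FPKM in embryo, 86 and 84.5 in ovary, 144 and 139 in OSS, and 23.1 and 23.9 in carcass. CSN1b rose in embryo (1.15) and was at 92.2 and 97.4 FPKM in embryo, 44.9 and 39.6 in ovary, 65.7 and 65.6 in OSS, and 12.3 and 17.1 in carcass.

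The chaperonin is a ring complex that folds actin and tubulin and is no part of the proteasome. All 8 genes tested, of 9 names listed, rose in ovary against carcass (median 2.06, 1.91 for Cctgamma to 2.43 for Cct5) and in OSS against carcass (median 2.96, 2.6 for Cctgamma to 3.49 for Cct5). All 8 fell in ovary against OSS (7 under median-ratio scaling, median -0.92, -1.06 for Cct5 to -0.64 for Tcp-1eta) and in embryo against ovary (median -4.37). CG8258 differed by -5.55 in embryo against ovary, at 4.16 and 2.71 FPKM in embryo, 203 and 205 in ovary, 374 and 385 in OSS, and 47.4 and 53.3 in carcass. CG5525 differed by -3.79, the smallest fall of the list in embryo, at 5.2 and 8.58 FPKM in embryo, 99.9 and 112 in ovary, 213 and 219 in OSS, and 20.3 and 26.8 in carcass. A median embryo minus ovary difference of the size seen for the regulatory particle was therefore also measured for the chaperonin.

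Of the 13 testis-type paralogs, 7 were under 1 FPKM in all libraries with a value: Prosalpha3T, Prosbeta2R1, Prosbeta4R1, Prosbeta4R2, Prosbeta5R, Rpt4R and Rpn12R, the last of which has no value in carcass replicate 1. No paralog exceeded its general partner in any library. The 2 paralogs above 5 FPKM in any library, Rpt6R and Rpt3R, are copies of base ATPases, and both were highest in OSS. Outside OSS every paralog was under 10 FPKM, the highest value being 8.13 FPKM for Rpt3R in ovary. The name pattern misses CG6789 (Rpn13R), CG31742 (Prosbeta5R2) and CG30382 (Prosalpha1R), which are not among the 13. CG6789 was at 0 and 1.74 FPKM in embryo, 1.33 and 0.656 in ovary, 0.881 and 0.384 in OSS, and 0 and 3.28 in carcass. CG31742 was at 1.19 FPKM in OSS replicate 1, 0.828 in carcass replicate 2 and 0 elsewhere. CG30382 stands on 2 lines, listed at 0 or with no value.

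Rpt6R was at 0 and 2.49 FPKM in embryo, 0.637 and 0.235 in ovary, 77.2 and 76.1 in OSS, and 0.467 and 0.588 in carcass. Both OSS libraries thus stood far above the other 6, whose ranges overlap between groups. In OSS it reached 64.4% and 59.1% of its general partner Pros45 in the same libraries, and in embryo replicate 2, where both genes were low, 70.4%. Its difference was 5.67 (SE 0.55, adjusted p = 8.46e-05) for OSS minus carcass and -5.77 (SE 0.55, adjusted p = 0.000247) for ovary minus OSS. Rpt6R was at 1 FPKM or more in 3 libraries only, both OSS libraries and embryo replicate 2. It thus passed the filter through OSS, so the p-values of these comparisons with OSS are a description. No call was made for ovary minus carcass (-0.10, adjusted p = 0.884) or embryo minus ovary (0.39, adjusted p = 0.588). Without embryo replicate 1, where it is listed at 0, the embryo minus ovary difference was 1.297 and was called (adjusted p = 0.00997), with the 1 embryo library left assumed to vary like the other groups. Over the alternative settings the OSS minus carcass difference lay between 4.97 and 6.94 and was called each time. No gene overlapping Rpt6R was annotated.

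Rpt3R was at 1.47 and 1.27 FPKM in embryo, 8.13 and 7.2 in ovary, 33.9 and 37.6 in OSS, and 0 and 1.2 in carcass, so OSS lay above ovary, and ovary above embryo and carcass, with no overlap. It reached 16.8% and 18.0% of Rpt3 in OSS, against 5.15% and 4.82% in ovary. The difference was 4.63 (SE 0.38, adjusted p = 3.82e-05) for OSS minus carcass, 2.54 (SE 0.38, adjusted p = 0.00069) for ovary minus carcass and -2.09 (SE 0.38, adjusted p = 0.00454) for ovary minus OSS, the last being lost with a pseudocount of 0.1 (adjusted p = 0.186). For embryo minus ovary it was -1.87 (SE 0.38, adjusted p = 0.00396), a call lost with a pseudocount of 0.1, with median-ratio scaling and with quantile normalization. CG8412 overlaps Rpt3R on the opposite strand, and was at 4.61 and 5.01 FPKM in embryo, 17.9 and 18.1 in ovary, 21.1 and 20.9 in OSS, and 17 and 21.1 in carcass.

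**Figure D5:**
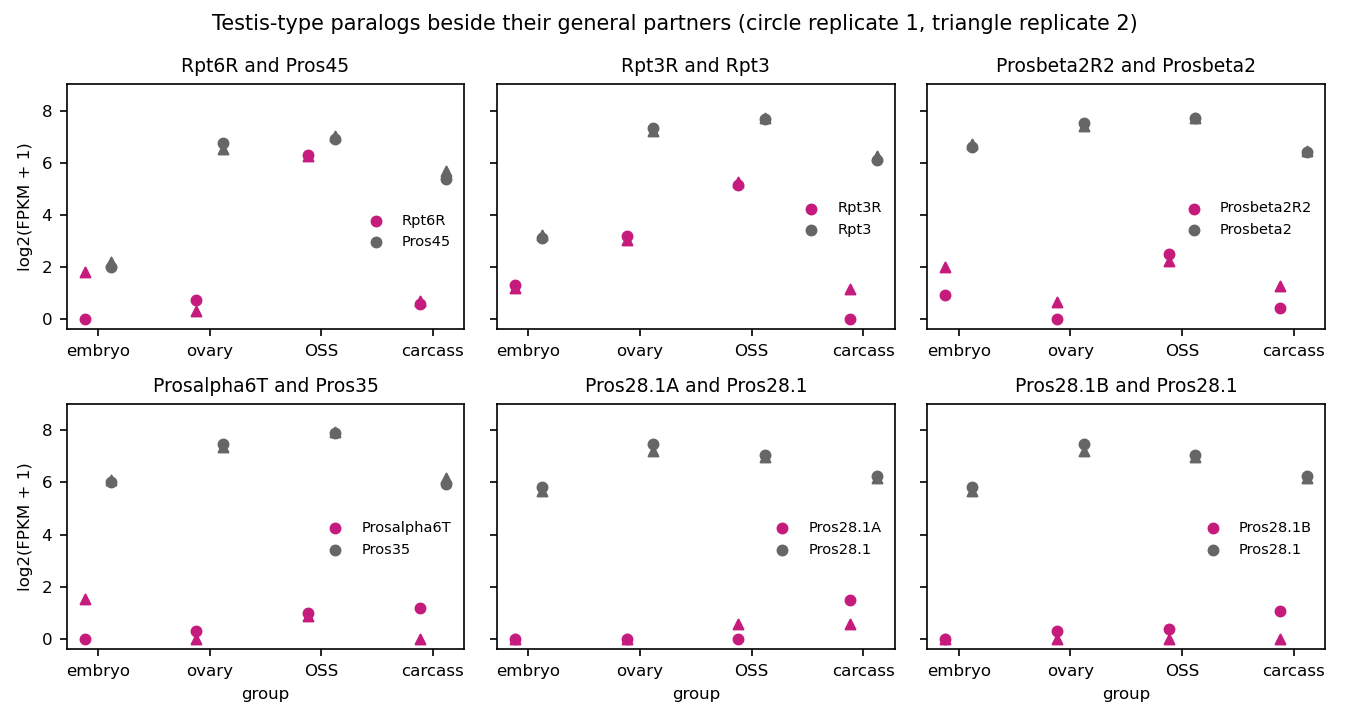
Level as log2(FPKM + 1) of the 6 of 13 testis-type paralogs that reach 1 FPKM in any library, each beside its general partner, in embryo, ovary, OSS and carcass (circle replicate 1, triangle replicate 2). Rpt6R and Rpt3R are high in both OSS libraries (77.2 and 76.1 FPKM, and 33.9 and 37.6 FPKM), and every paralog point lies below its partner's.

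Prosbeta2R2 was at 0.862 and 2.99 FPKM in embryo, 0 and 0.564 in ovary, 4.55 and 3.63 in OSS, and 0.328 and 1.41 in carcass, its 2 highest values being those of OSS. It rose in OSS against carcass by 1.5 (SE 0.49, adjusted p = 0.0255) and fell in ovary against OSS, with a difference of -2.02 (SE 0.49, adjusted p = 0.0148); each call was lost when either OSS replicate was left out. In OSS it was at 2.16% and 1.725% of its partner Prosbeta2. Prosalpha6T, a copy of Pros35, was at 0 and 1.89 FPKM in embryo, 0.242 and 0 in ovary, 0.957 and 0.834 in OSS, and 1.24 and 0 in carcass and was called in no comparison, except lower in ovary against OSS in a fit of these 2 groups alone (adjusted p = 0.0230). Pros28.1A was at 0 and 0 FPKM in embryo, 0 and 0 in ovary, 0 and 0.459 in OSS, and 1.83 and 0.491 in carcass, and Pros28.1B at 0 and 0 FPKM in embryo, 0.214 and 0 in ovary, 0.283 and 0 in OSS, and 1.1 and 0 in carcass. For these the single value above 1 FPKM was that of carcass replicate 1, and neither passed the filter. Counting members, 3 of the 4 testis-type paralogs tested rose in OSS against carcass, 3 fell in ovary against OSS, 1 rose in ovary against carcass and 1 fell in embryo against ovary. Of all genes tested, 46.1%, 23.0%, 43.5% and 44.8% were called in that direction in these comparisons, in the same order. A paralog passed the filter only through libraries where it is high, so these counts are a description.

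Markers of male tissue and testis were measured in the same libraries. The 20 genes summed to 6.85 and 15.8 FPKM in embryo, 4.11 and 4.92 in ovary, 86.0 and 84.7 in OSS, and 3.08 and 17.2 in carcass (12 of the 20 have a value in carcass replicate 1). In OSS, 6 and 5 of the 20 were at 1 FPKM or more and 7 and 8 were at 0. The highest of the 20 in OSS was the dosage compensation RNA roX1, which is made in male cells, at 43.5 and 49.4 FPKM. The other roX RNA, roX2, was at 5.54 and 11.2 FPKM in OSS. The spermatid genes Mst84Dd and Mst87F were also detected, Mst84Dd at 17.4 and 15.1 FPKM in OSS and Mst87F at 10.5 and 3.73 FPKM in OSS, while betaTub85D, the testis tubulin, was at 0.798 and 0.625 FPKM in OSS, and dj was listed at 0 in both OSS libraries. Also under 1 FPKM in both OSS libraries were aly, can, kl-2, kl-3 and kl-5, and Mst35Ba and Mst35Bb were listed at 0 there. The part of the cells that express these markers in the levels of Rpt6R and Rpt3R was not tested.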

How the data were processed

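Gene expression was measured by RNA sequencing in 8 libraries, 2 each of embryo, ovary, OSS and carcass, and groups were taken from the labels. Per the labels' protocols, RNA was extracted with TRIzol, and ribosomal RNA was removed from 5 ug before library preparation with ScriptSeq V2. The deposited gene values are FPKM, made by the authors per gene symbol, with Cufflinks, TopHat, Bowtie and CASAVA 1.3 on the build dm3, per the submitters' processing notes, which state no annotation, filter or strand setting. The values of carcass replicate 1 are FPKM like those of the other libraries, but 1070 of its 14147 lines hold no number. These, and 5 lines of carcass replicate 2, were treated as missing.

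The 93 names on more than 1 line were left out. Values were used as deposited, on log2(FPKM + 1), and genes that reached 1 FPKM in at least 2 libraries entered limma 3.58.1, run under R 4.3.3 (functions lmFit and eBayes, variance trend on, 4 residual degrees of freedom, 2-sided, Benjamini-Hochberg adjusted p under 0.05), a method tested on simulated data. The gene values are not counts, so no counting interval is given, and the pseudocount of 1, the 2 libraries per group and the scaling limit the precision. Alternatives were another pseudocount, no filter, 3 other scalings, a fit of the 2 groups compared, no variance trend, a replicate block and leaving out each library. Replicate numbers were not used as pairs, because the labels do not say that they mark a shared batch. The correlation of replicate deviations between groups lay between -0.066 and 0.023. It cannot tell whether libraries with the same number share animals or a batch.

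Named by rule were all members, with values in each library for the paralogs at 1 FPKM or more, their partners, the 3 called subunits with the highest and the lowest difference per comparison and those not called, and the highest and lowest called gene of each pathway list. Members and lists were chosen with earlier results of these data known. Current symbols come from RefSeq, and transcript length and overlapping genes from the Ensembl BDGP6 annotation, a newer build than dm3, so no positions are given. Promoter and protein sequences were not analysed here.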

Additional observations from a re-analysis of the deposited data

How the results depend on the processing

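Median-ratio scaling moved most results. The median difference of the general subunits became 0.28 for ovary minus carcass, 0.52 for OSS minus carcass and -2.27 for embryo minus ovary, and the calls became 3 higher, 13 higher, and 4 higher with 21 lower. Single values that changed sign under it were Prosbeta1 (-0.021) and Prosbeta7 (-0.10) for ovary minus carcass, Pros28.1 (-0.10) and Rpn6 (-0.021) for OSS minus carcass, and Prosbeta2 (0.45), Prosbeta3 (0.49) and Rpt4 (0.45) for embryo minus ovary. Quantile normalization gave medians of 0.93, 1.18 and -2.37 in the same order of comparisons, and a fixed sum of FPKM gave -3.21 for embryo minus ovary. Relative to the median of all genes, the subunits' median lay between 0.58 and 1.00 for ovary minus carcass, 0.74 and 1.13 for OSS minus carcass, -0.22 and -0.13 for ovary minus OSS, and -3.16 and -2.27 for embryo minus ovary over all settings.

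For ovary minus OSS, the general subunits called lower numbered 6 with a fixed sum, 3 with median-ratio scaling, 20 in a fit of these 2 groups alone and 6 without a variance trend, and between 1 and 15 when 1 library was left out. Those called higher numbered 4 with quantile normalization, 1 with a fixed sum and 1 in the fit of 2 groups, and between 0 and 1 when 1 library was left out. With the replicate block, 1 general subunit was called higher and 9 lower in ovary minus OSS. Whether replicate numbers mark a shared batch is not stated in the labels. Leaving out 1 library gave an embryo minus ovary median between -3.63 and -3.36. Of the testis-type paralogs, without a filter on low values 2 were called lower for ovary minus carcass and 1 for OSS minus carcass. For embryo minus ovary 1 was called higher and 0 lower with median-ratio scaling and with quantile normalization, 0 lower with a pseudocount of 0.1, and between 0 and 2 higher when 1 library was left out. The causes of these changes were not tested. The calls of the 5 subunits under other symbols are given above. Adding them is no test of the counts of general subunits, because 5 genes can change the larger counts only a little. Read depth is unknown, so values near 0, such as those of most testis-type paralogs and of Rpn11 in embryo, carry no stated precision.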
